A study of Homo sapiens with 24 samples.

Results

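Most of the 47 protein-coding genes described here encode enzymes that add methyl groups to the lysines of histones or remove them. 6 of them are SET proteins with another or no established histone target, and other such enzymes lie outside the rule. The members were taken by symbol from 58676 gene rows: the KMT, SETD and NSD methyltransferases, the KDM demethylases, and EZH1, EZH2, EHMT1, EHMT2, SUV39H1, SUV39H2, ASH1L and DOT1L, with Y-linked genes left out. The set holds 28 methyltransferases and related SET-domain proteins and 19 demethylases. Of the 47, 44 reached 1 CPM (counts scaled to the library's gene reads) in at least 2 libraries and were tested beside all other such genes, 13136 in total. The cells were HepG2, a human line from a liver cancer, transfected with a control siRNA (siControl) or with siRNA against 1 of the RNA-binding proteins IGF2BP1, IGF2BP2 and IGF2BP3 (siIGF2BP1, siIGF2BP2, siIGF2BP3). Actinomycin D, which blocks transcription, was given at 5 µg/ml for 0, 3 or 6 h, with 2 libraries for each of the 12 combinations. All cells carried an siRNA and those at 3 and 6 h the drug as well, so no untransfected cells were compared, and the study calls its 2 replicates independent, while the labels do not say what was replicated, so the p-values measure the spread between these libraries.

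A histone lysine can carry from 1 to 3 methyl groups, and the position decides what the mark is known for. Methylated lysine 4 of histone H3 (H3K4) marks promoters and enhancers, H3K36 and H3K79 mark transcribed gene bodies, H3K27 is the mark of Polycomb repression, and H3K9 and H4K20 mark heterochromatin. The SET-domain enzymes and DOT1L write these marks. The LSD (KDM1) enzymes, which use flavin, and the JmjC enzymes (KDM2 to KDM8), which use iron and 2-oxoglutarate, remove them. Many mRNAs of chromatin regulators and transcription factors are known to be short-lived, and AU-rich elements and Pumilio sites in the 3′ UTR are known to promote mRNA decay.

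Gene reads ranged from 31843248 to 74252042 per library and ERCC spike-in reads from 50889 to 119088. Replicates correlated with r between 0.9962 and 0.9984 across genes. Averaged over the 3 time points, the targeted mRNAs were lower in their own knockdowns, with log2 changes of -2.50 (IGF2BP1), -2.12 (IGF2BP2) and -1.79 (IGF2BP3). All 8 hepatocyte-lineage markers reached 1 CPM (summed level 62300 to 92200 CPM), while 0 of 4 fibroblast, 0 of 4 blood and 0 of 4 glial markers did (LUM and OLIG2 at 0 reads throughout) and 3 of 4 endothelial markers did, with a summed level of 0.934 to 2.7 CPM. Actinomycin D acted on the mRNAs chosen as a check: 8 of 8 known short-lived mRNAs fell in siControl (median log2 change per 6 h of -5.14) and 0 of 8 long-lived ones did (median 0.06).

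In siControl before the drug, KDM1A (LSD1, which removes methyl groups from H3K4) had the highest level per length of the set. It was at 80.0 and 84.1 TPM (a level per transcript length, over all annotated exons) in the 2 libraries. SETD1A, a promoter H3K4 methyltransferase, followed at 62.6 and 66.4 TPM, SETD3, which methylates a histidine of actin, at 62.9 and 62.5 TPM, KDM3B, an H3K9 demethylase, at 50.3 and 51.4 TPM, and EHMT2 (G9a, an H3K9 methyltransferase) at 50.2 and 49.8 TPM. The values of SETD1A and SETD3 overlapped and those of KDM3B and EHMT2 nearly met, so the order within each pair is not separated from the spread. The median of the 47 was 22.1 TPM.

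Among the enzymes of H3K27, EZH2, the main catalytic subunit of Polycomb repressive complex 2 (PRC2) in dividing cells, was at 29.6 and 30.9 TPM and its paralog EZH1 at 8.07 and 9.17 TPM. The H3K27 demethylase KDM6B was at 28.6 and 30.5 TPM and KDM6A (UTX) at 3.67 and 3.81 TPM. Both pairs stood apart by several times the gap between their libraries. With the length of the canonical transcript in place of all exons, KDM1A stayed first, at 297 TPM, and EZH2 moved from rank 14 to rank 2, at 74.9 TPM, with EZH1 at 7.93 TPM. SETD1A moved from rank 2 to rank 7 and KDM3B from rank 4 to rank 12. KDM6B was at 19.8 TPM and KDM6A at 10.4 TPM on that scale, a much smaller gap, and the median of the 47 became 19.1 TPM.

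At the low end were KDM4D, a germline-biased H3K9 demethylase, with a mean of 2.39 TPM, and SETD7, an H3K4 monomethyltransferase, with 0.217 TPM and 14 to 79 reads in each of the 24 libraries. NSD1, an H3K36 methyltransferase on chromosome 5 (177131830 to 177300213, plus strand, hg38), had 0 to 9 reads per library and 74 in all, which is 0.0611 CPM. Whether its transcript was scarce or its reads were not assigned to it cannot be told from these counts. Its paralogs NSD2 and NSD3 were read at 180.6 and 182.8 CPM and at 88.26 and 88.37 CPM in siControl at 0 h. The KDM4 copies KDM4E and KDM4F had 0 of 1211954746 gene reads, which allows a level of up to 0.00248 CPM (3 reads, counting error only). NSD1, KDM4E and KDM4F were the members that were not tested. KDM4D passed the filter through the 0 h libraries alone, so its inclusion and its fall are tied.

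The mRNAs of this set were lost faster than the middle of all genes tested, which were not limited to protein-coding genes. Decay is given as a slope, the log2 change per 6 h after each library was scaled to its ERCC reads, fitted with edgeR for each condition. In siControl 43 of the 44 tested members fell (adjusted p under 0.05), where 80.3% of all genes tested did, and the exception was SETD7 (-0.73, SE 0.43, adjusted p 0.123 in edgeR). The 43 include KDM4D, whose fall is tied to its inclusion. The median slope of the members was -1.74 against -0.885 over all genes. Among protein-coding genes with a 3′ UTR of 891 to 2790 nt, it was -1.586 for 22 members and -0.951 for all 4219. Of the 44, 23 (52.3%) lay below the lower quartile of all slopes (-1.72) and 1 (2.27%), KDM1B, above the upper quartile (-0.39). The half-lifetime, from a first-order decay equation on the mean of both libraries, had a median of 3.35 h in the set and 5.88 h over the genes for which it could be computed, and it was under 6 h for 34 of the 44 members (77.3%, against 46.0% of all genes tested). The set's share of all gene reads fell with time, from 0.348% at 0 h to 0.234% at 3 h and 0.193% at 6 h.

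Because ERCC RNA was added per amount of total RNA, slopes were also computed relative to the middle of all genes tested (TMM scaling). These genes are called other mRNAs below. A negative value means faster loss than their middle. On that scale 32 members were lost faster than the middle and 5 slower, with 38.7% and 36.3% of all genes tested on the same sides, and the median was -0.87 against -0.02 over all genes. The 5 on the slower side were KDM3B, DOT1L, SETD3, EZH1 and KDM1B. In each of the knockdowns 33 members were faster (38.4%, 39.2% and 37.5% of all genes in siIGF2BP1, siIGF2BP2 and siIGF2BP3).

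**Figure D1:**
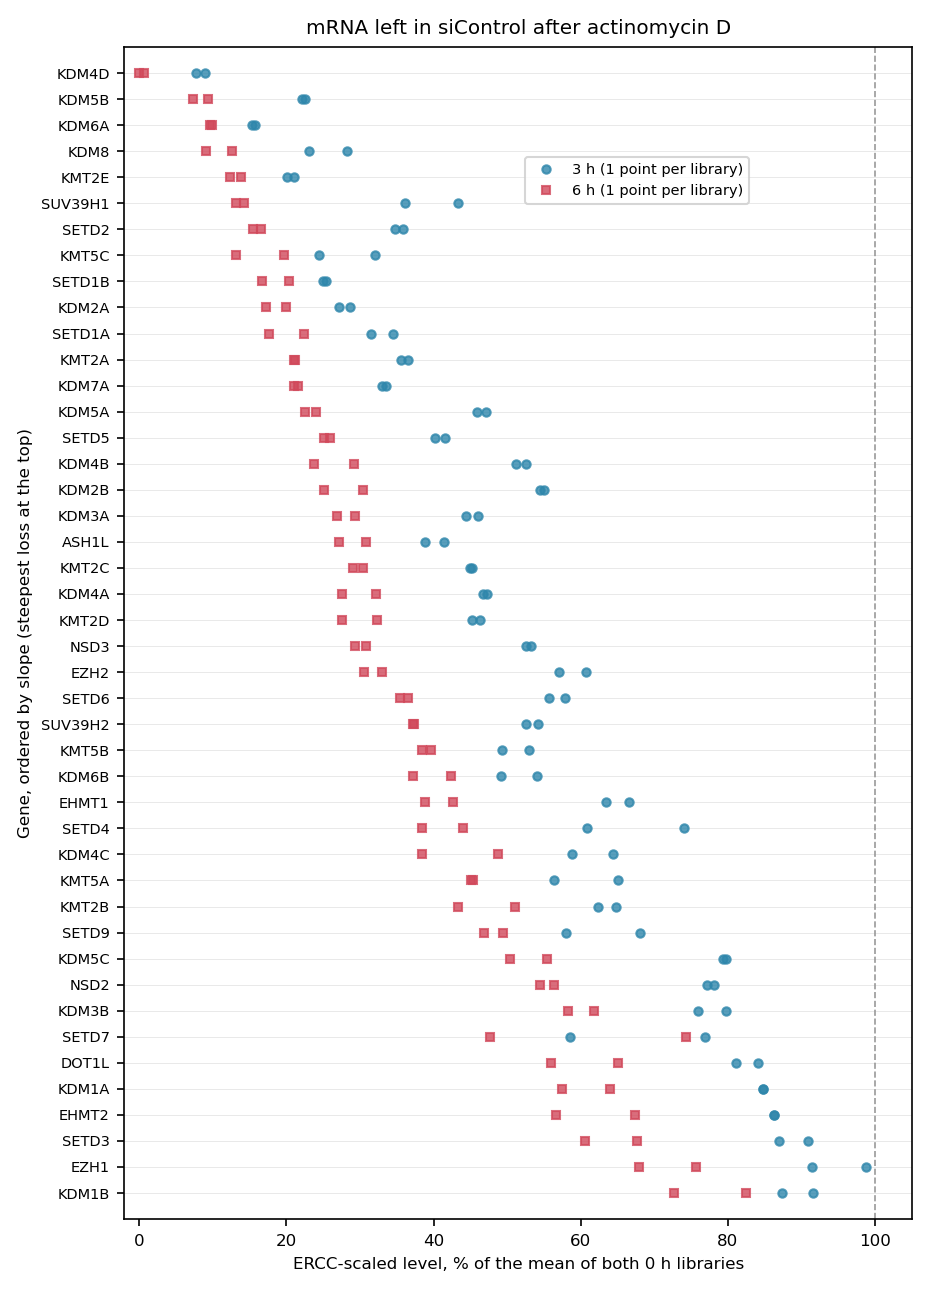
ERCC-scaled level of each tested gene in siControl at 3 h (circles) and 6 h (squares) of actinomycin D, in percent of the mean of both 0 h libraries, 1 point per library, with genes ordered by slope. KDM4D, KDM5B and KDM6A were at or under 10% at 6 h, and KDM1B and EZH1 kept 67.9% to 82.5%.

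The 6 steepest falls belonged to KDM4D, KDM5B, KDM6A, KDM8, KMT2E and SUV39H1. KDM4D passed the filter through the 0 h libraries alone, so its place at the head is tied to its inclusion. KDM5B, which removes the trimethyl mark of H3K4 (chromosome 1, 202724495 to 202808487, minus strand), was left at 22.2% and 22.6% of its 0 h mean at 3 h and at 9.35% and 7.34% at 6 h. Its slope was -3.60 (SE 0.227, adjusted p 3.63e-12 in edgeR), with a half-lifetime of 1.52 h. KDM6A (chromosome X, 44873188 to 45112779, plus strand) was left at 15.8% and 15.3% at 3 h and at 9.95% and 9.70% at 6 h, with a slope of -3.40 (SE 0.42, adjusted p 1.76e-07) and the second shortest half-lifetime, 1.38 h. Both genes were under 10% of their start in both 6 h libraries.

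KDM8, a JmjC protein whose activity on histones is debated (chromosome 16, 27203508 to 27221768, plus strand), was left at 9.09% and 12.6% at 6 h, with a slope of -3.23 (SE 0.336). KMT2E, a SET protein that reads H3K4 methylation and has no established methyltransferase activity (chromosome 7, 104940943 to 105115019, plus strand), was left at 13.8% and 12.4%, with a slope of -2.95 (SE 0.4). SUV39H1, which adds the third methyl group to H3K9 in heterochromatin (chromosome X, 48695554 to 48709016, plus strand), was left at 14.3% and 13.1%, with a slope of -2.86 (SE 0.173). For all 3, the 2 libraries differed by a few percentage points.

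KDM4D (chromosome 11, 94973709 to 94999519, plus strand) was counted at 117 and 123 reads at 0 h in siControl, 7 and 10 at 3 h, and 0 and 1 at 6 h. Scaled to ERCC, the 6 h reads were 0.334% of those at 0 h (exact 95% interval of the ratio 0.00843% to 1.88%, counting error only). In the knockdowns the same ratio was 6.35% (3.12% to 11.6%) in siIGF2BP1, 3.22% (1.46% to 6.22%) in siIGF2BP2 and 4.94% (2.1% to 9.95%) in siIGF2BP3, from 8 to 11 reads at 6 h. Per library these reads were 6 and 5 in siIGF2BP1, 2 and 7 in siIGF2BP2, and 8 and 0 in siIGF2BP3. The siIGF2BP3 value thus rests on its first library. The intervals leave out the spread between libraries. The tests of the slope differences did not pass the threshold for this gene, with adjusted p of 0.459, 0.755 and 0.379 in siIGF2BP1, siIGF2BP2 and siIGF2BP3 in edgeR.

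Sites of the AU-rich element core TATTTAT in the canonical 3′ UTRs of 4 of these genes are shown because this word is a known feature of unstable mRNAs and 23 of the 44 tested members hold it. Each is a 29-nt window of hg38, written in the sense of the mRNA with the word in capitals.
KDM4D, chr11:94999432-94999460, plus strand: cttttctgagtTATTTATgtacttaaaat
KDM5B, chr1:202728477-202728505, minus strand: tagactaggttTATTTATctgagcaataa
KDM6A, chrX:45112048-45112076, plus strand: taaatttacacTATTTATaaatacatatt
KMT2E, chr7:105114750-105114778, plus strand: ctttgaacctcTATTTATttccttttgaa

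Of the 44 tested members, 23 (52.3%) held TATTTAT in the 3′ UTR, against 35.3% of the 11361 protein-coding genes tested. The Pumilio word TGTANATA, where N is any base, was in 20 (45.5%) against 29.8%, and the shorter ATTTA, which lies inside TATTTAT, in 35 (79.5%) against 72.7%. Only the mRNA strand was searched. Median 3′ UTR length was 1551 nt in the set and 1324 nt over all genes, so the shares were also taken at a like length of 891 to 2790 nt, where TATTTAT was in 59.1% of 22 members and 37.0% of 4219 genes, and TGTANATA in 50.0% and 31.9%. For ATTTA the order turned at that length, with 77.3% and 86.5%. Among the 23 members with slopes below the lower quartile of all genes, KDM4D included, 15 held TATTTAT, 13 TGTANATA and 20 ATTTA. Among the other 21 members 8, 7 and 15 did. The 3′ UTR lengths of these 2 groups of members were not matched, and the same split was not made over all genes. A link between the words and the rate of loss was not tested. KDM8 and SUV39H1, among the 6 steepest, hold none of the 3 words, and DOT1L, among the 6 least, holds TATTTAT at 2 places. Across the 44 members Spearman's rho of the slope was -0.099 with 3′ UTR length and -0.04 with its AT content. It was -0.22 with coding length and 0.02 with exon number. Over the 11361 genes the values were -0.244, -0.15, -0.2 and 0.148 in the same order. All are descriptions over genes that share the same libraries.

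KDM6A and KMT2E hold both words, and so does KDM4B, which had the lowest p of the members for the slope differences of siIGF2BP2 and siIGF2BP3 below. A Pumilio word of each is shown in the same way.
KDM6A, chrX:45112181-45112209, plus strand: attttctatgTGTAAATAaaactgcttag
KMT2E, chr7:105113853-105113881, plus strand: cctgacaaacTGTAAATActgcatttctt
KDM4B, chr19:5151823-5151851, plus strand: ttgtcacttcTGTACATAaaccacctttg

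The 6 least falls belonged to KDM1B, EZH1, SETD3, EHMT2, KDM1A and DOT1L, leaving out SETD7, which did not pass. KDM1B (LSD2, chromosome 6, 18155329 to 18223854, plus strand) was left at 82.5% and 72.7% at 6 h, with a slope of -0.36 (SE 0.097, adjusted p 0.00161 in edgeR) and a half-lifetime of 17.5 h. Without siControl 0 h replicate 1 its slope was -0.24 (adjusted p 0.0507). EZH1 (chromosome 17, 42700275 to 42745049, minus strand) was left at 75.6% and 67.9%, with a slope of -0.48 (SE 0.129, adjusted p 0.00185) and the longest half-lifetime of the set in siControl, 19.2 h.

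The other 4 kept between 55.9% and 67.6% at 6 h. SETD3 was left at 67.6% and 60.6%, EHMT2 at 67.4% and 56.7%, KDM1A at 64.0% and 57.4%, and DOT1L, the H3K79 methyltransferase, at 65.1% and 55.9%. In each of the 6 genes the first 6 h library was higher than the second. KDM1A, SETD3 and EHMT2 were thus at once among the 5 most abundant members at 0 h and among the 6 least lost. On the scale relative to other mRNAs all 6 had the opposite sign, from 0.14 (DOT1L) to 0.51 (KDM1B), and with plain library-size scaling so had EZH1 (0.06) and KDM1B (0.19).

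Among the H3K4 methyltransferases 6 of 7 fell, with a median slope of -1.75. In siControl 80.3% of all genes tested fell, with a median of -0.885, so counts of falls in groups this small are no result about a group. The promoter enzymes SETD1B (-2.45) and SETD1A (-2.33) and the MLL enzyme KMT2A (-2.25) fell most, the enhancer enzymes KMT2C (-1.75) and KMT2D (-1.74) less, and KMT2B least among those that passed (-1.08). The ratio of KMT2A to KMT2B reads in siControl was 1.96 and 1.79 at 0 h and 0.78 and 0.913 at 6 h. Reads of KMT2C may include those of its pseudogene copies. All 4 H3K36 methyltransferases tested fell (median -1.76): SETD2, which makes the trimethyl mark, with -2.65, ASH1L with -1.79, NSD3 with -1.73 and NSD2 with -0.85. The ratio of SETD2 to NSD2 went from 0.833 and 0.808 to 0.226 and 0.248.

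All 4 H3K9 methyltransferases fell (median -1.36), where 80.3% of all genes tested did. Within each pair the paralogs differed: SUV39H1 with -2.86 and SUV39H2 with -1.43, EHMT1 (GLP) with -1.30 and EHMT2 with -0.69. The ratio of SUV39H1 to EHMT2 reads went from 0.163 and 0.153 at 0 h to 0.0336 and 0.0365 at 6 h. Both H3K27 methyltransferases fell, EZH2 with -1.65 (SE 0.083) and EZH1 with -0.48. EZH2 (chromosome 7, 148807257 to 148884321, minus strand) was left at 33.0% and 30.6% at 6 h, where EZH1 was left at 75.6% and 67.9%, and the ratio of EZH2 to EZH1 reads dropped from 5.66 and 5.2 through 3.6 and 3.14 to 2.37 and 2.45. The 3 H4K20 methyltransferases fell as well, KMT5C with -2.64, KMT5B with -1.36 and KMT5A (SET8, the monomethyltransferase, which has pseudogene copies) with -1.14. Of the 6 SET proteins with another or no established histone target, all fell, from -2.95 (KMT2E) to -0.64 (SETD3).

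The 17 demethylases tested all fell, beside 80.3% of all genes tested, and KDM4D among them passed the filter through the 0 h libraries alone. Their median slope was -1.85, and the 27 methyltransferases and SET proteins had a median of -1.47, beside -0.885 over all genes. The KDM5 enzymes, which act on H3K4, ranged from KDM5B (-3.60) through KDM5A (-2.10) to KDM5C (-0.92). The ratio of KDM5B to KDM5C reads went from 0.785 and 0.803 at 0 h to 0.134 and 0.116 at 6 h. In the KDM6 and KDM7 group, KDM6A (-3.40) and KDM7A (-2.24) fell more than KDM6B (-1.33), and the ratio of KDM6A to KDM6B went from 0.481 and 0.468 to 0.111 and 0.124. KDM2A (-2.44) and KDM2B (-1.85), which act on H3K36, both fell, and so did the H3K9 demethylases KDM3A (-1.83) and KDM3B (-0.735), whose ratio went from 0.861 and 0.759 to 0.386 and 0.375. In the KDM4 family, which acts on H3K9 and H3K36, KDM4B (-1.91), KDM4A (-1.745) and KDM4C (-1.20) fell beside KDM4D. The 2 LSD enzymes had a median of -0.54.

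In the annotation 16 members overlap another gene on the same strand and 31 a gene on the opposite strand, among them SETD4 with CBR1 and KDM4A with KDM4A-AS1, and the strand and overlap settings of the counting are not given in the sources used here.

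The read ratios are within a library, so no scaling enters them, and the difference between the slopes of 2 genes was not tested. Each of the 7 ratios named was lower in both 6 h libraries than in both 0 h libraries of every condition. Each pair puts the gene with the steeper siControl slope first, so a falling ratio in siControl restates those slopes and is no separate result. At 6 h EZH2 to EZH1 was 2.42 and 2.26 in siIGF2BP1, 2.59 and 2.24 in siIGF2BP2 and 2.34 and 2.48 in siIGF2BP3, beside 2.37 and 2.45 in siControl.

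**Figure D2:**
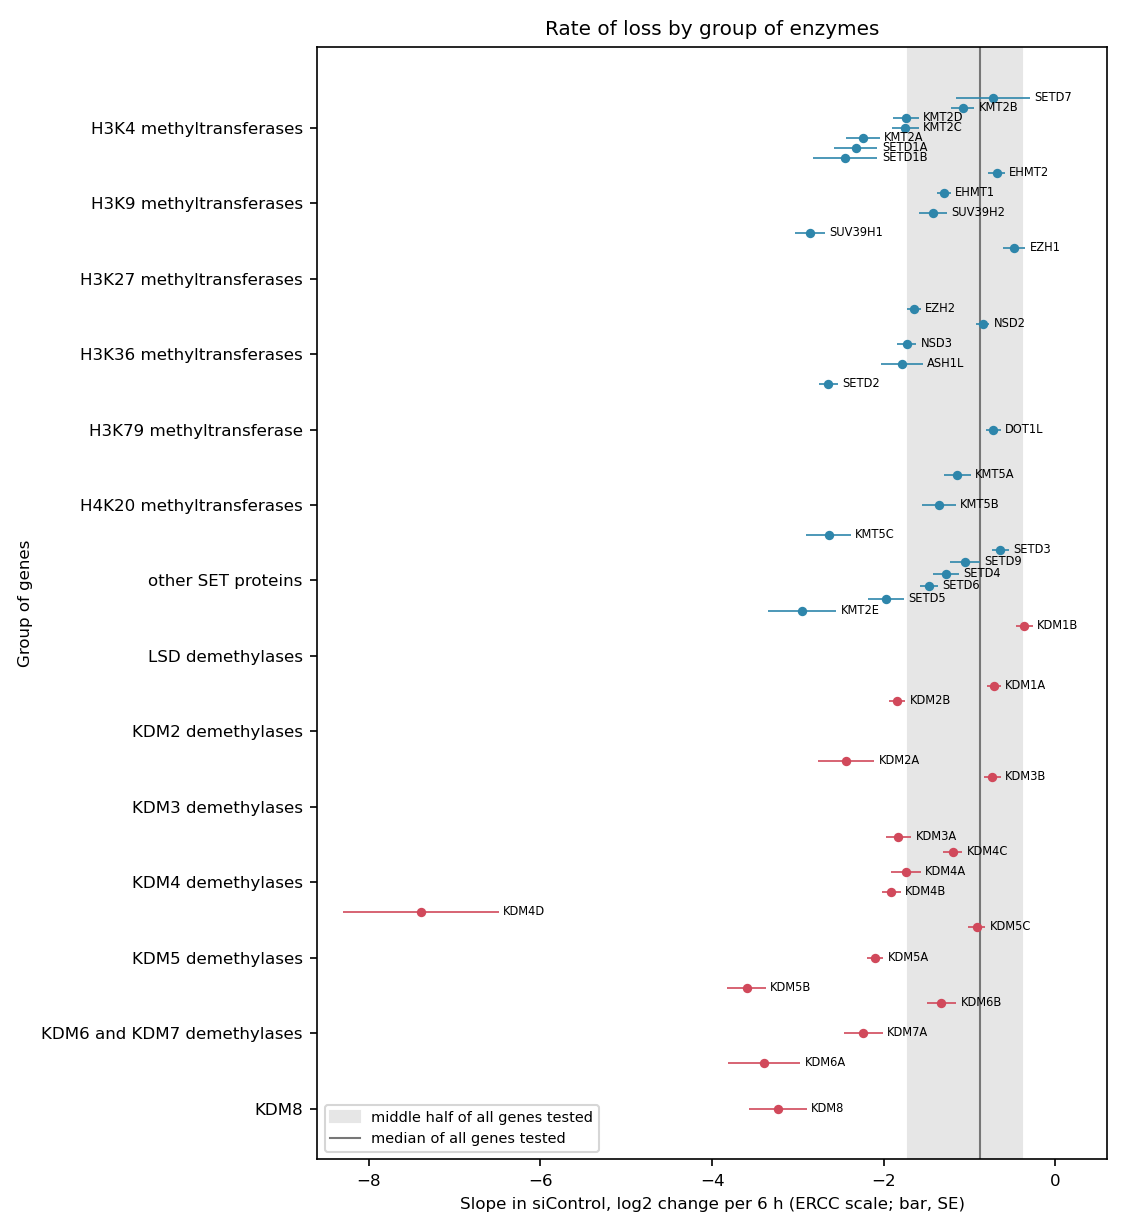
Slope of each tested gene in siControl (log2 change per 6 h on the ERCC scale, bar SE), grouped by the mark or family (blue, methyltransferases and SET proteins; red, demethylases), with the median of all genes tested (line) and the range between their lower and upper quartiles (grey, -1.72 to -0.39). KDM5B and KDM5C, SUV39H1 and EHMT2, and EZH2 and EZH1 lie far apart within their groups.

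**Figure D3:**
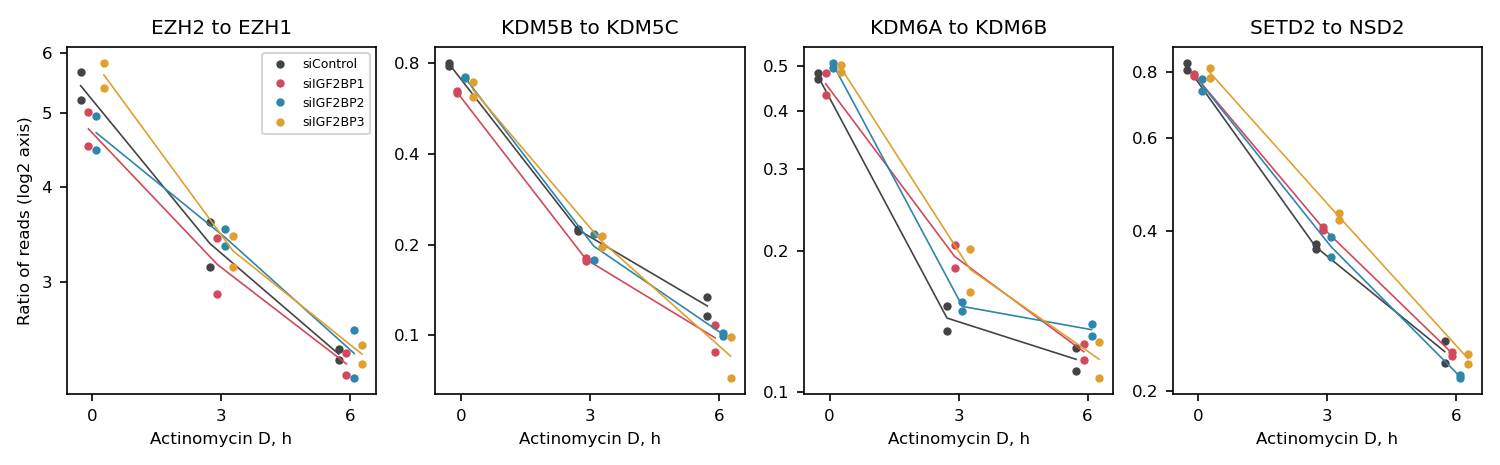
Ratio of reads of EZH2 to EZH1, KDM5B to KDM5C, KDM6A to KDM6B and SETD2 to NSD2 in every library (log2 axis) against hours of actinomycin D, with a line through the mean of both libraries of each condition. All 4 ratios fell with time in all 4 conditions, and each pair has the gene with the steeper siControl slope first.

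Loss was not even over time. In siControl the median change of the members was -0.95 from 0 to 3 h and -0.63 from 3 to 6 h, where all genes had -0.44 and -0.42, and 28 of 44 (63.6%) lost more in the first interval, against 46.5% of all genes. KDM6A changed by -2.68 and then -0.67, KMT2E by -2.28 and -0.65, SETD1B by -1.99 and -0.45, and KDM2A by -1.84 and -0.59. SUV39H1 (-1.33 and -1.53) and EZH2 (-0.76 and -0.89) lost slightly more in the second interval. For genes such as KDM6A a single slope therefore averages a fast and a slower part. In siIGF2BP1, siIGF2BP2 and siIGF2BP3 the first interval held the larger loss for 33, 41 and 36 members, beside 55.0%, 83.3% and 61.3% of all genes.

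The binding partners of these enzymes gave a background from the same complexes. Over all genes tested 80.3% fell in siControl, with a median slope of -0.885. All 11 COMPASS subunits, the partners of the KMT2 and SETD1 enzymes, fell in siControl, with a median slope of -1.12 and a range from -3.35 (PAGR1) to -0.28 (DPY30). All 10 PRC2 subunits other than the EZH enzymes fell (median -1.53), among them SUZ12 with -1.45 and EED with -2.28. Of 8 LSD1 partners 6 fell (median -1.52), with RCOR1 at -3.03, while HDAC1 (-0.07) and HMG20B (-0.21) did not pass. Of 15 SET and JmjC enzymes outside the set 14 fell (median -1.71).

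The comparisons at 0 h ask whether a knockdown changed the abundance of these mRNAs before transcription was stopped. They were tested with edgeR on TMM-scaled counts, and the 3 comparisons share the siControl libraries. In siIGF2BP1 5 of the 44 members passed, where 15.9% of all genes tested did. KDM5B was lower: it was at 75.09 and 71.93 CPM in siControl and at 54.77 and 54.74 CPM in siIGF2BP1, a log2 difference of -0.41 (SE 0.076, adjusted p 0.000131). KDM3B was lower too, at 91.44 and 90.08 CPM against 104.0 and 106.2 CPM (-0.19, SE 0.042, adjusted p 0.00089). The groups did not overlap for either gene, but here and below the share of all genes without overlap is not given.

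KMT2B was higher in siIGF2BP1, at 82.85 and 78.02 CPM against 67.54 and 70.88 CPM (0.24, SE 0.05, adjusted p 0.000549). KDM1A was at 429.8 and 440.2 CPM against 384.7 and 404.7 CPM (0.16, SE 0.031, adjusted p 0.000281), and EHMT2 at 106.3 and 103.4 CPM against 96.25 and 95.45 CPM (0.15, SE 0.046, adjusted p 0.0191). These rises are relative to the other mRNAs. With ERCC scaling 0 members were higher and 1, KDM5B, lower, and with plain library size 2 were higher and 5 lower. EHMT2 no longer passed without any 1 of the 4 libraries, with adjusted p from 0.0611 (without siIGF2BP1 0 h replicate 2) to 0.142 (without siIGF2BP1 0 h replicate 1).

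In siIGF2BP2 4 of 44 passed, beside 12.1% of all genes. ASH1L, an H3K36 methyltransferase (chromosome 1, 155335268 to 155563162, minus strand), was at 62.24 and 62.11 CPM against 83.15 and 79.12 CPM in siControl, a log2 difference of -0.38 (SE 0.052, adjusted p 1.19e-06). KDM7A (chromosome 7, 140084746 to 140176983, minus strand), which acts on H3K9 and H3K27, was at 45.0 and 49.53 CPM against 65.28 and 57.1 CPM (-0.365, SE 0.069, adjusted p 0.000192). Both stood below both siControl libraries. SUV39H1, at 19.41 and 18.58 CPM against 15.68 and 14.63 CPM, was higher by 0.33 (SE 0.114, adjusted p 0.0465), and EHMT2, at 104.2 and 105.7 CPM, by 0.14 (adjusted p 0.0382). The latter 2 lost the threshold without any 1 of the 4 libraries, which left 2 members in each case: siControl replicate 1, siControl replicate 2, siIGF2BP2 replicate 1 or siIGF2BP2 replicate 2. The ERCC scale moved the median of all genes by 0.10 in this comparison, and 1 member was higher and 2 were lower on it.

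In siIGF2BP3 6 of 44 passed, beside 9.39% of all genes. KDM2B was higher, at 66.04 and 66.28 CPM against 56.87 and 55.97 CPM in siControl (0.23, SE 0.057, adjusted p 0.00528). NSD3 was at 98.12 and 100.3 CPM against 88.26 and 88.37 CPM (0.17, adjusted p 0.0368), KMT2B at 79.74 and 75.3 CPM (0.17, adjusted p 0.0245), NSD2 at 192.9 and 197.6 CPM (0.11, adjusted p 0.0434) and KDM1A at 422.0 and 420.4 CPM (0.10, adjusted p 0.0422). KDM5B was lower, at 62.0 and 60.52 CPM (-0.26, adjusted p 0.0231). None of the 6 overlapped siControl, again without the share of all genes for which this holds. The number that passed was 1 without siControl 0 h replicate 1 or without siIGF2BP3 0 h replicate 1, 3 without siIGF2BP3 0 h replicate 2 and 4 without siControl 0 h replicate 2, and with ERCC scaling it was 2. Not all of these were among the 6. NSD2, NSD3 and KDM5B lost the threshold without any 1 of the 4 libraries, KDM1A kept it only without siControl 0 h replicate 2, and KMT2B lost it without replicate 1 of either condition. KDM2B lost it without siControl 0 h replicate 2 (adjusted p 0.07) and was the 1 of the 6 that kept it with ERCC scaling.

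The 3 shares, 5, 4 and 6 of 44, are near the shares of all genes and are no result about the set as a whole. The calls that held under each of the 12 other settings tried were those of KDM5B in siIGF2BP1 and of ASH1L and KDM7A in siIGF2BP2. Of the 11 COMPASS subunits 2 passed in each knockdown, and of the 10 PRC2 subunits 1 did. Of all genes tested, 15.9%, 12.1% and 9.39% passed in siIGF2BP1, siIGF2BP2 and siIGF2BP3.

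**Figure D4:**
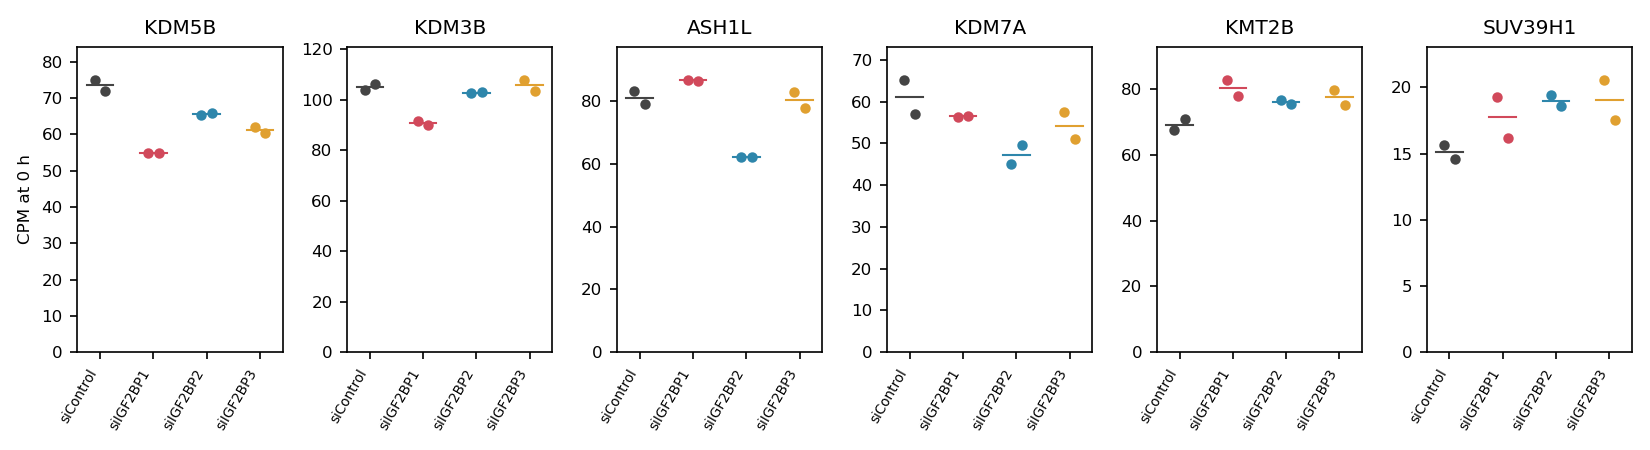
Level at 0 h (CPM, axis from 0) of KDM5B, KDM3B, ASH1L, KDM7A, KMT2B and SUV39H1 in each condition, 1 point per library with a line at the mean of both. KDM5B is lowest in siIGF2BP1 (54.77 and 54.74 CPM), and ASH1L and KDM7A are lowest in siIGF2BP2.

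Averaged over the 3 time points, which uses 6 libraries per condition, smaller differences passed: 26 of 44 members in siIGF2BP1 (39.7% of all genes), 18 in siIGF2BP2 (33.8%) and 20 in siIGF2BP3 (32.3%). The test takes the 6 as independent. Cells were split into dishes after transfection, so the 6 may come from fewer transfections and the p-values may be too small. Of the 26, 15 were higher and 11 lower (21.2% and 18.5% of all genes), of the 18, 9 and 9 (17.1% and 16.7%), and of the 20, 15 and 5 (16.2% and 16.0%). In the order siIGF2BP1, siIGF2BP2, siIGF2BP3, KDM5B was lower with log2 values of -0.46, -0.19 and -0.23, KMT5A with -0.27, -0.24 and -0.25 and DOT1L with -0.12, -0.19 and -0.135. SUV39H1 was higher by 0.39, 0.31 and 0.28, and KMT2A by 0.12, 0.10 and 0.16. The comparisons share their siControl libraries, so agreement in sign across them is partly built in. ASH1L was higher in siIGF2BP1 (0.23) and lower in siIGF2BP2 (-0.23). On the ERCC scale, where the median of all genes was 0.06, 0.15 and 0.18, the members that passed were split 15 higher and 4 lower, 26 and 1, and 28 and 0, so most of the lower calls hold relative to other mRNAs and not against the spike-ins.

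Comparing 2 knockdowns with each other removes the shared control. At 0 h 8 of 44 members differed between siIGF2BP1 and siIGF2BP2 (18.7% of all genes), 5 between siIGF2BP1 and siIGF2BP3 (14.3%) and 4 between siIGF2BP2 and siIGF2BP3 (9.19%). The shares of members are near those of all genes and are no result about the set. ASH1L showed the largest difference. It was at 86.88 and 86.59 CPM in siIGF2BP1, 62.24 and 62.11 CPM in siIGF2BP2 and 83.1 and 77.86 CPM in siIGF2BP3, so that siIGF2BP2 stood 0.49 below siIGF2BP1 (adjusted p 2.97e-09) and 0.37 below siIGF2BP3 (adjusted p 2.39e-06) on the log2 scale. KDM3B was lower in siIGF2BP1 than in siIGF2BP2 (102.6 and 103.0 CPM; -0.17, adjusted p 0.00327) and siIGF2BP3 (108.0 and 103.6 CPM; -0.21, adjusted p 0.000523). KMT2C was lower in siIGF2BP3, at 102.8 and 104.4 CPM, than in siIGF2BP1, at 119.1 and 121.4 CPM (0.23 for siIGF2BP1 minus siIGF2BP3, adjusted p 0.000294). Leaving out any 1 of the 4 libraries kept 3 or 4 of the 8, 3 of the 5 and 1 or 2 of the 4 calls, with SUV39H2 lost each time between siIGF2BP1 and siIGF2BP3 and NSD3 each time between siIGF2BP2 and siIGF2BP3. KDM4A, KDM5B and KDM1B lost the threshold each time between siIGF2BP1 and siIGF2BP2. ASH1L and KDM3B kept the threshold each time.

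The time course asks whether losing an IGF2BP protein changed the decay of these mRNAs. The members decayed in the knockdowns too: 41, 43 and 41 of 44 members fell in siIGF2BP1, siIGF2BP2 and siIGF2BP3 (69.1%, 71.3% and 67.2% of all genes), with median slopes of -1.37, -1.33 and -1.32. The median half-lifetime was 4.0, 3.94 and 3.95 h, beside 6.51, 6.21 and 6.61 h over the genes for which it could be computed. These were 11190, 11859 and 11037 of the 13136, as genes without a positive decay rate have none. EZH1 had none in siIGF2BP3. The slope of each knockdown minus that of siControl passed the threshold for 0 of 44 members in every comparison (0.0152%, 0.0% and 0.0228% of all genes tested). Without adjustment, 6, 7 and 12 members had p under 0.05 in edgeR, as did 10.9%, 6.82% and 16.1% of all genes. DESeq2 called 0, 0 and 1 members, the last being KDM4B in siIGF2BP3, and 0.0305%, 0.0457% and 0.206% of all genes.

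The median slope difference of the members was 0.27, 0.23 and 0.28, a slower loss, but all genes moved by 0.19, 0.17 and 0.22. With TMM scaling the members' medians were 0.07, 0.04 and 0.05 and those of all genes -0.01, -0.02 and -0.01. The ERCC share of gene reads at 6 h moved with this shift, with a mean of 0.205% in siControl and 0.183%, 0.175% and 0.169% in the knockdowns. The part of the spike-in scale in the slopes was not tested beyond these values.

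KDM4B, an H3K9 and H3K36 demethylase (chromosome 19, 4969113 to 5153598, plus strand), had the lowest p of the members in siIGF2BP2 and siIGF2BP3. It was left at 29.2% and 23.8% at 6 h in siControl, 40.0% and 34.0% in siIGF2BP1, 38.4% and 39.6% in siIGF2BP2 and 42.9% and 41.4% in siIGF2BP3, so that every knockdown library stood above both siControl libraries. These percentages are on the ERCC scale and hold the shift of all genes, and the share of all genes separated in this way is not given here. Its slope difference was 0.48 (SE 0.158, adjusted p 0.423), 0.555 (SE 0.157, adjusted p 0.643) and 0.67 (SE 0.159, adjusted p 0.19) in edgeR. In siIGF2BP3 it passed without siControl 0 h replicate 2 (0.78, adjusted p 0.0351), where 3 members did, and with the change from 0 to 6 h alone (0.665, adjusted p 0.00766), where 4.11% and 1.48% of all genes did. With TMM scaling its slope differences were 0.29, 0.37 and 0.45.

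EZH2 followed. It was left at 33.0% and 30.6% at 6 h in siControl and at 41.4% and 41.0% in siIGF2BP1. In siIGF2BP2 it was left at 37.6% and 43.2%, and in siIGF2BP3 at 41.5% and 39.7%. These percentages too hold the shift of all genes on the ERCC scale. Its slope difference was 0.37 (SE 0.116, adjusted p 0.423), 0.34 (adjusted p 0.643) and 0.35 (adjusted p 0.277), and with TMM scaling it was 0.18, 0.15 and 0.13. The third lowest p belonged to EHMT1 in siIGF2BP1 (0.34, SE 0.112, adjusted p 0.423), NSD2 in siIGF2BP2 (0.26, adjusted p 0.643) and KDM5A in siIGF2BP3 (0.405, SE 0.137, adjusted p 0.277). KDM5A passed in siIGF2BP3 without siControl 0 h replicate 2 (0.52, adjusted p 0.0489). KDM5B, the member with the clearest lower level in siIGF2BP1 at 0 h, kept a half-lifetime of 1.52, 1.54, 1.53 and 1.65 h in siControl, siIGF2BP1, siIGF2BP2 and siIGF2BP3.

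**Figure D5:**
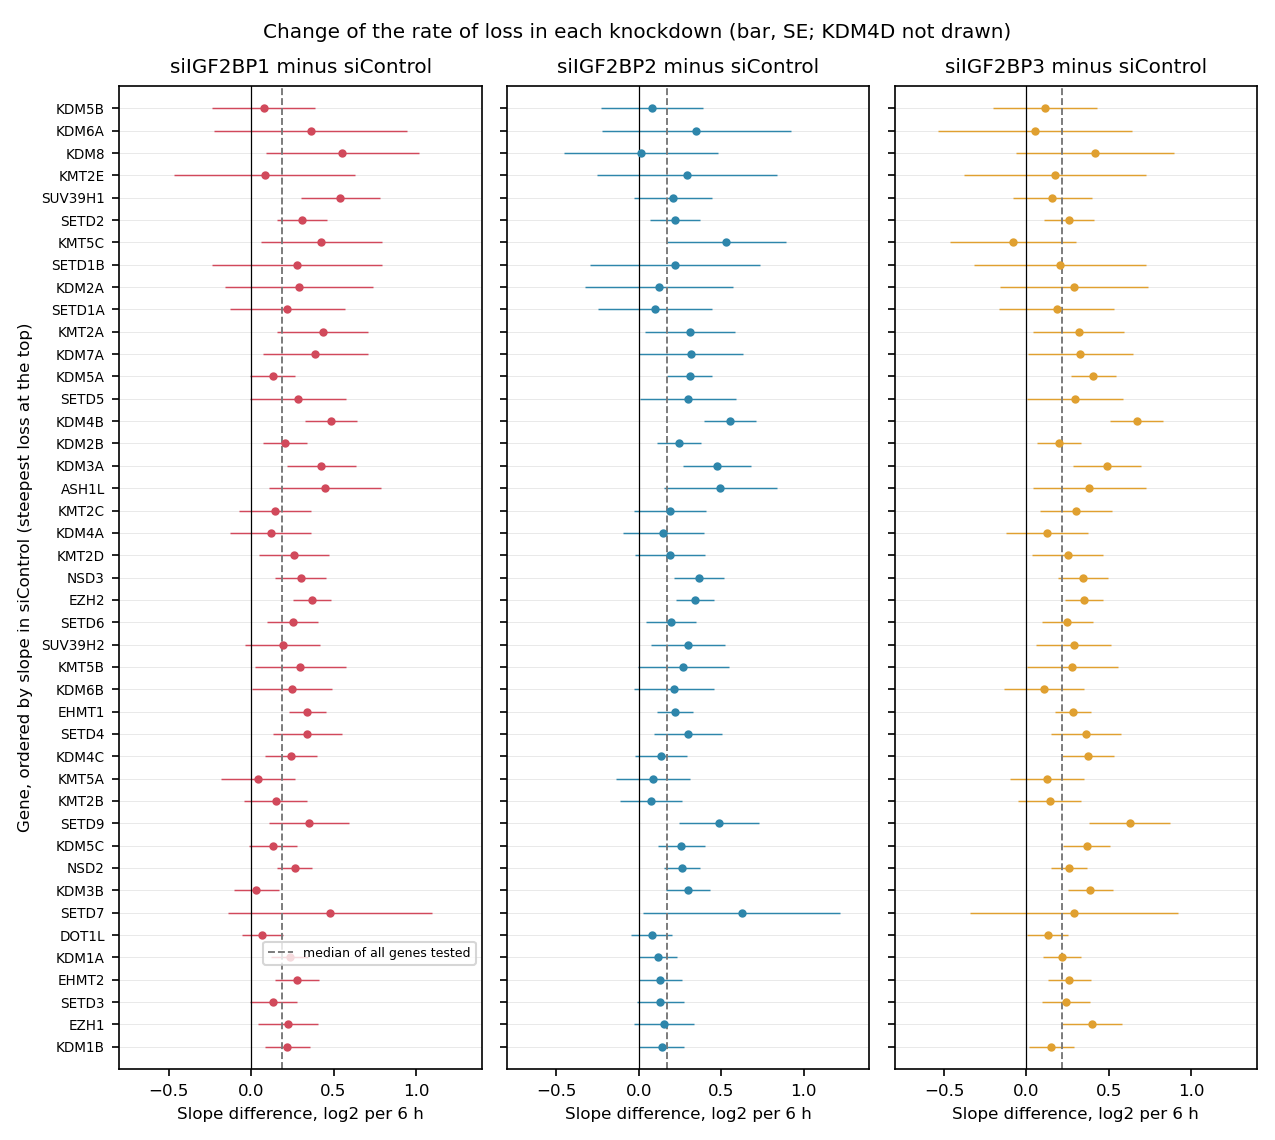
Slope in each knockdown minus that in siControl (log2 change per 6 h, ERCC scale, bar SE) for each tested gene except KDM4D, ordered by slope in siControl, with the median of all genes tested as a broken line. The genes scatter around a median of all genes of 0.19, 0.17 and 0.22, and KDM4B lies to the right in all 3 panels.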

How the data were processed

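Poly(A) RNA was sequenced from 24 HepG2 libraries. Per the labels and the study's methods, ERCC RNA was added per amount of total RNA before poly(A) selection, stranded single-end libraries were made, reads were trimmed with Trimmomatic 0.39 and aligned to hg38 with HISAT2 2.1.0, and genes were counted with HTSeq on GENCODE. The deposited values are raw read counts per gene, not normalized. HTSeq summary rows, 13.551% to 17.064% of each library, and 45 duplicate pseudoautosomal rows were left out. Symbols, coordinates, exon lengths and 3′ UTRs are from a later GENCODE release on hg38, which matched all but 469 gene identifiers. Replicate counts differed beyond sampling noise in all 12 groups. PCR duplicates could not be removed.

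Genes with at least 1 CPM in at least 2 libraries (13136) were tested with edgeR 4.0.16 (quasi-likelihood, R 4.3.3, two-sided), with Benjamini-Hochberg adjustment over all of them and a threshold of 0.05. Levels used 12 group means and TMM scaling. Slopes used an intercept and a slope on time per condition (8 terms) and ERCC totals as scale. SE follow from the fitted effect and its F value. The half-lifetime was ln2 over the mean of the decay rates to 3 and 6 h. Alternatives were DESeq2 1.42.0, other scalings and filters, fits on fewer libraries, a replicate block and fits without each library. In simulated counts for the 13136 genes, 200 of them changed, a log2 difference of 0.5 was recovered for 67% at 0 h in siIGF2BP1 and for 56% as a slope difference in siIGF2BP3, and of 1 for 90.5% and 80%. The slope simulation used the spread around the 12 group means, a constant rate of loss and ERCC scales without error. Its recovery therefore cannot be read as that of the real slope test. The members and lists were chosen with earlier results of these data known. The text names members that passed at 0 h or between knockdowns, the 3 lowest p of each slope difference, the 6 steepest and 6 least falls that passed, the 5 highest and 5 lowest levels, and the members that differ most within a family. Members named for the averaged difference, for the early and late loss and for the sequences were chosen after their values were seen.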

Additional observations from a re-analysis of the deposited data

Results flagged for a closer look

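The following 17 differences between 2 knockdowns at 0 h passed the edgeR test of the difference itself (log2, TMM scaling, adjusted over all genes tested). For siIGF2BP1 minus siIGF2BP2 they were ASH1L (0.49, adjusted p 2.97e-09), KDM4A (0.28, adjusted p 0.0161), KDM7A (0.27, adjusted p 0.00428), KDM1A (0.11, adjusted p 0.0122), KDM1B (-0.16, adjusted p 0.0467), KDM3B (-0.17, adjusted p 0.00327), KDM3A (-0.24, adjusted p 0.00443) and KDM5B (-0.25, adjusted p 0.0176). For siIGF2BP1 minus siIGF2BP3 they were KMT2C (0.23, adjusted p 0.000294), SETD1A (-0.2, adjusted p 0.0165), KDM3B (-0.21, adjusted p 0.000523), KDM2B (-0.22, adjusted p 0.00642) and SUV39H2 (-0.24, adjusted p 0.0481). For siIGF2BP2 minus siIGF2BP3 they were KMT2C (0.18, adjusted p 0.00713), EZH2 (-0.15, adjusted p 0.0344), NSD3 (-0.17, adjusted p 0.0374) and ASH1L (-0.37, adjusted p 2.39e-06). The differences of ASH1L and KDM3B named here passed under each of the 11 other settings tried. Those of KDM4A, KDM5B, KDM1B, SUV39H2 and NSD3 lost the threshold whichever of the compared libraries was left out. Of all genes tested, 18.7%, 14.3% and 9.19% passed in the same order of comparisons. The shares of members were near these, so the number of differences is no result about the set. Groups of 2 libraries are too small to look for a library that stands apart within a group.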

How the results depend on the processing

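Falls in siControl turned in sign on the TMM scale for DOT1L (0.144), KDM1A (0.146), EHMT2 (0.179), SETD3 (0.228), EZH1 (0.383) and KDM1B (0.506), and with library-size scaling for EZH1 (0.063) and KDM1B (0.186). KDM1A in siIGF2BP1 minus siIGF2BP2 was -0.003 on the ERCC scale. TMM is centred on the middle of all genes, which moves every slope by a like amount. Members that passed at 0 h in siIGF2BP1 numbered 1 with ERCC scaling (4.94% of all genes), 8 with a CPM of at least 5 (20.3%), 13 with the 4 libraries compared alone (20.7%) and 26 over the 3 time points (39.7%), and without 1 library 4 to 5. In siIGF2BP2 they numbered 2 with library-size scaling (11.9%), 2 with no filter on low counts (3.78%), 10 with the 4 libraries alone (18.1%), 18 over the time points (33.8%) and 2 without any 1 library. In siIGF2BP3 they numbered 2 with ERCC scaling (3.59%), 3 with no filter (3.12%), 12 with the 4 libraries alone (12.9%), 20 over the time points (32.3%) and 1 to 4 without 1 library. Between knockdowns the range without 1 library was 3 to 4 (siIGF2BP1 and siIGF2BP2), 3 to 4 (siIGF2BP1 and siIGF2BP3, 11 with the 4 libraries alone, 17.7%) and 1 to 3 (siIGF2BP2 and siIGF2BP3, 1 with ERCC scaling, 2.91%). These count all members that passed, newly called ones included. Slope differences from 0 to 6 h alone called 2 members in siIGF2BP2 (0.548%) and 2 in siIGF2BP3 (1.48%), DESeq2 called 1 in siIGF2BP3 (0.206%), and fits without 1 library called 0 to 3. The median half-lifetime was 5.32 h with TMM scaling, and the median level 19.1 TPM with canonical lengths and 21.9 to 22.1 TPM with 1 library. Beyond the fewer libraries or genes that some settings use, the cause of these changes was not tested. For single named members 622 values kept direction and side of the threshold, 100 lost it, 4 gained it and 9 turned.

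Replicate numbers did not pair the samples across all groups (correlation of same-numbered deviations over 0.1 in 6 of 66 pairs of groups, median 0.012). The 6 pairs joined siIGF2BP3 at 0, 3 and 6 h (0.17 to 0.235) and these with siControl at 6 h (0.125 to 0.276). Cells were split into dishes after transfection, so time points of a condition may share a transfection. A replicate block within each condition left 43 falls in siControl and 0 slope differences. With a replicate block 43 members fell in siControl, 37 were called relative to other mRNAs, 5, 5 and 7 differed at 0 h, 0 slope differences passed, and 8, 6 and 4 differed between knockdowns. Few reads limit SETD7, KDM4D and NSD1 most.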
